A study of Mus musculus with 5 samples.

Results

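Macrophages of treated mouse colon tumors were compared with macrophages of untreated normal colon, cell by cell assigned from their transcripts and then summed per library. A cell was chosen by its UMIs (unique molecular identifiers, each counting 1 captured mRNA): the UMIs of C1qa, C1qb, C1qc, Csf1r, Adgre1, Mrc1 and Ms4a7 had to reach 3 and to exceed those of the neutrophil genes Csf3r, Cxcr2, Retnlg, Hdc and Il1r2. In the 4 libraries compared, 397 of 7072 cells were macrophages by this rule, 332 of them from tumors and 65 from normal colon.

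All mice were WT, of either a mixed C57BL/6J and 129 or a C57BL/6J background by the methods, and 6 to 12 weeks old when experiments began. The days are those of the labels. The tumors were induced with azoxymethane, a colon carcinogen, and dextran sodium sulfate, which injures the colon lining (AOM/DSS tumors), and were treated with 5FU+Irinotecan, the antimetabolite 5-fluorouracil and a topoisomerase inhibitor. The tumor libraries were day 1 replicate 1, day 1 replicate 2 and day 6 of treatment, with 46, 129 and 157 macrophages, or 6.15%, 5.37% and 5.56% of kept cells. The single normal library was untreated WT colon from a stroma-enriching protocol labelled fibroblast dissociation, and 5.94% of its kept cells were macrophages. The tumors went through the normal dissociation, so tumor, drug treatment, dissociation protocol and library cannot be told apart in this comparison. The labels name no animals, so that the spread over tumor libraries may be partly technical. The day 1 replicate 1 and day 3 libraries were single-indexed, the other 3 dual-indexed. A further treated library, day 3, held only 19 such cells and was kept outside the comparison.

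Macrophages of the healthy colon wall are renewed from blood monocytes, which enter the tissue, lose monocyte genes such as Ly6c2 and Ccr2, and take on scavenger receptors, complement and MHC class II. Long-lived subsets near vessels and nerves carry genes such as Folr2, Cd163, Cd4 and Vcam1. In tumors and inflamed colon, newly arrived monocytes and immature macrophages are known to make chemokines, matrix proteins and growth factors.

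The label was checked against the cells. C1qa, C1qb and Csf1r stood at 609, 661 and 397 CPM (counts per 1000000 UMIs of the summed macrophages) in day 1 replicate 1, at 346, 354 and 449 CPM in day 1 replicate 2, at 950, 1053 and 552 CPM in day 6, and at 2366, 1733 and 1610 CPM in normal colon. These values chose the cells and are given as a description. The other cells of each library had 12 CPM or less of C1qa and of C1qb.

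A cell of great depth reaches 3 marker UMIs with a low marker share, and 9, 30, 40 and 4 cells of the libraries in the order above had exactly 3 marker UMIs, while 27, 46, 113 and 26 kept cells stood just outside at 2. A second selection was therefore made after the data were seen: marker-rich cells, with at least 5 marker UMIs per 10000 UMIs of the cell, which numbered 34, 95, 111 and 60. The remaining marker-poor cells held 66.1%, 58.2%, 62.6% and 28.1% of the macrophage UMIs. The 6 leukocyte genes outside the rule (Tyrobp, Fcer1g, Lyz2, Cd68, Ctss and Laptm5) together had a median of 11920, 13291, 11867 and 13899 CPM in the marker-rich cells, against 321, 216, 414 and 242 CPM in the marker-poor cells and 169, 187, 304 and 0 CPM in cells outside the rule. The marker-poor cells were near the other cells in these genes, at median depths of 22372, 19488, 18022 and 13669 UMIs against 4664.5, 4847, 4482 and 2889 UMIs in the marker-rich cells. Values below are for all cells of the rule unless the marker-rich cells are named. Because marker-poor cells held more of the tumor UMIs, ratios of macrophage genes higher in normal can be larger with all cells of the rule. The median log2 ratio of normal to the tumor mean over 18 further macrophage markers was 0.69 with all cells of the rule and -0.26 with marker-rich cells.

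**Figure D1:**
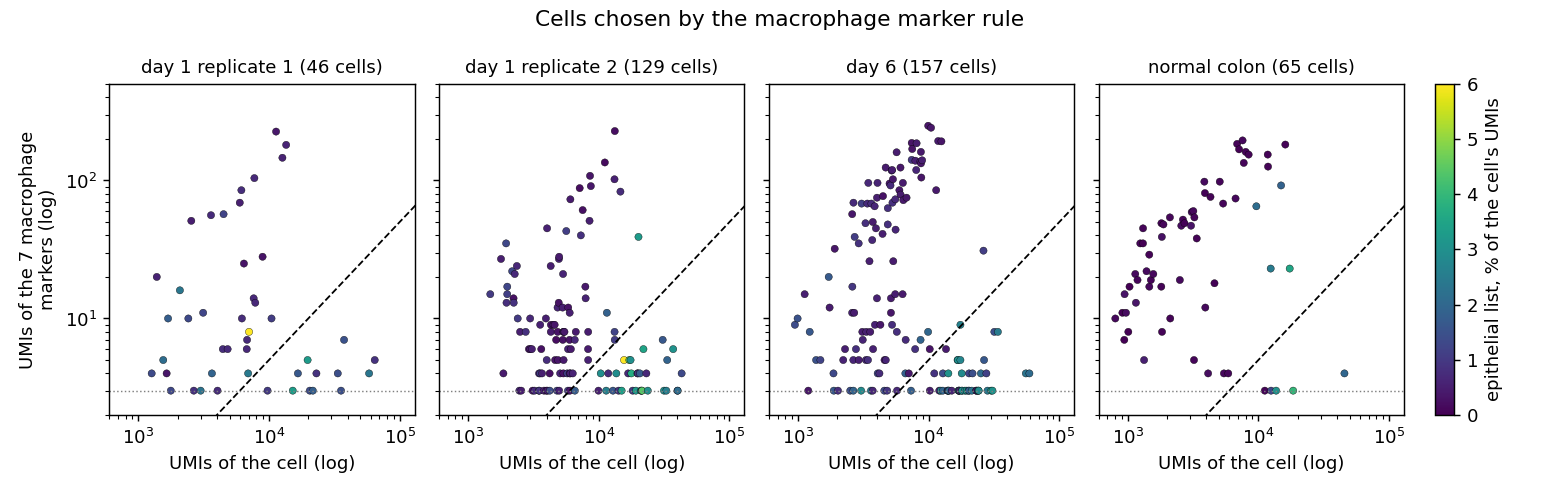
Each point is 1 cell chosen by the rule, with its UMIs on the x axis (log) and the UMIs of the 7 macrophage markers on the y axis (log), coloured by the percent of its UMIs in the epithelial list. The dotted line marks 3 marker UMIs and the dashed line 5 marker UMIs per 10000, below which lie 12, 34, 46 and 5 deep cells.

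Depth behind the comparison was 538995, 1230241 and 1536045 UMIs in the summed tumor macrophages and 360141 UMIs in normal (marker-rich: 182783, 514553, 574583 and 258766). A gene was called where the normal CPM lay outside all 3 tumor values by at least 2-fold and its exact 95% Poisson interval, which covers counting error only, overlapped none of theirs. Of 11293 genes with at least 10 UMIs in 1 of the sums, 533 (4.72%) were called higher in normal colon and 413 (3.66%) lower. In the marker-rich cells the counts were 261 (3.02%) higher and 210 (2.43%) lower of 8632 genes, with 230 and 134 of them shared with the full selection and 0 in the opposite direction. The higher calls made up 56.3% of all calls, and 67.4% after TMM or 69.5% after DESeq2 scaling, which shifted the median gene by 0.15 and 0.17 on the log2 scale. With at least 30 UMIs required in 1 of the sums, the counts were 376 higher and 412 lower, so that 47.7% of calls were higher and the majority turned. Since all these values belong to the comparison that defines the gene sets, no p-value is given; with 3 libraries against 1 an exact permutation test cannot go below 0.25.

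Genes of resident macrophages were higher in normal colon. Of 22 such genes over the count minimum, 15 were called higher and 0 lower, with a median log2 ratio of normal to the tumor mean of 2.25, against -0.22 over all genes. In the marker-rich cells 9 were called higher and 0 lower, with a median of 1.68 against -0.26. Folr2, a folate receptor (chromosome 7, 101839988 to 101857190, GRCm38), had 9.28, 4.06 and 9.77 CPM in day 1 replicate 1, day 1 replicate 2 and day 6 and 247 CPM in normal colon. It was 25.3-fold above the highest tumor library (95% counting interval 14.5 to 47.1) and 15.7-fold (5.93 to 58.9) in the marker-rich cells. The 3 tumor values lay close together, and the gap to normal is what the gene was called for. After thinning to 1000 UMIs per cell, 18.2% of marker-rich normal macrophages (exact 95% interval 9.08 to 30.9) had a Folr2 UMI, against 2.94%, 1.05% and 1.83% in the tumor libraries and 0.210% of the other normal cells, whose median depth was 2976.5 UMIs against 2889 in the macrophages. Without thinning the shares were 40.0% in normal and 2.94%, 3.16% and 5.41% in tumors.

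Cd163, the receptor that clears haemoglobin-haptoglobin (chromosome 6, 124304636 to 124330529), stood at 7.42, 6.50 and 8.46 CPM in the tumors and at 108 CPM in normal. Cd4, which gut-resident macrophages share with helper T cells, had 1.86, 7.32 and 14.97 CPM against 178 CPM. Fcrls, an Fc receptor-like scavenger protein, had 3.71, 12.2 and 16.9 CPM against 228 CPM. None of these groups overlapped, and in the marker-rich cells normal remained 6.89-fold (2.48 to 26.5), 6.46-fold (3.93 to 11.01) and 7.003-fold (4.46 to 11.3) above the highest tumor value. The T and NK cell list summed to 33.4, 41.5 and 69.7 CPM in tumor and 38.87 CPM in normal macrophages, and to 27.4, 62.2 and 104 CPM against 54.1 CPM in the marker-rich cells; its part in the Cd4 difference was not tested.

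Further members of the list moved the same way. Cx3cr1, the fractalkine receptor, had 53.8, 35.8 and 40.4 CPM in tumors and 267 CPM in normal. Fcna, a secreted lectin of the complement system, had 7.42, 11.4 and 7.16 against 125 CPM, and Clec10a, a galactose-type lectin, 13.0, 13.8 and 8.46 against 97.2 CPM. Igf1, a growth factor made by resident macrophages, had 20.4, 4.88 and 8.46 against 88.9 CPM. All 4 genes were called in both selections. Pf4, Maf, Hpgds and Stab1 were called only with all cells of the rule; in the marker-rich cells their normal values were 1.51-fold, 1.99-fold, 1.87-fold and 1.18-fold above the highest tumor library. Il22ra2 was called in both, but its 107 normal UMIs came from 1 cell and its 104 day 6 UMIs from 4 cells. Cd209f and Cd209g, lectins near in sequence between which reads may be split, rested on 15 and 13 UMIs from 6 and 5 normal cells and were not called among marker-rich cells.

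**Figure D2:**
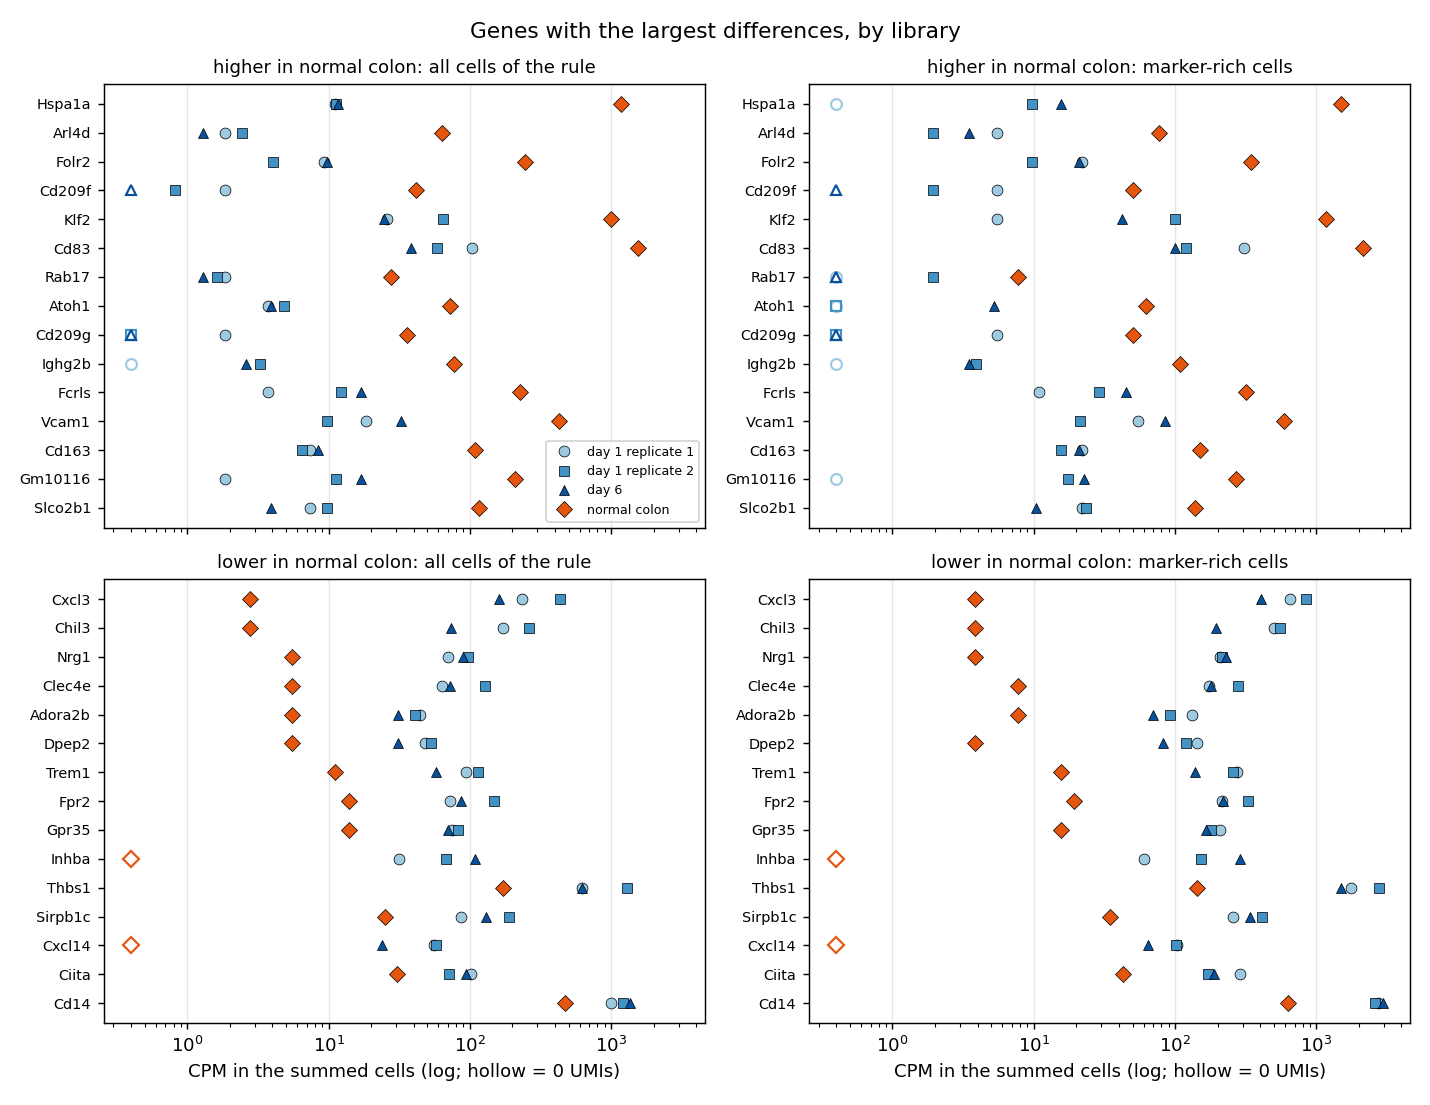
CPM (x axis, log) of the 15 genes called higher and the 15 called lower in normal colon with the largest fold to the nearest tumor library among genes enriched in macrophages, by library; left with all cells of the rule, right with marker-rich cells, hollow symbols for 0 UMIs. Orange diamonds (normal) lie apart from the 3 blue tumor symbols for every gene on the left, as the genes were chosen for it; in the marker-rich cells Rab17, Cd209f and Cd209g were no longer called.

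Outside that list the leading macrophage-enriched genes higher in normal colon were a mixed group. Vcam1, an adhesion molecule of long-lived macrophages, had 18.6, 9.75 and 32.6 CPM in tumors and 425 CPM in normal. Slco2b1, an organic anion transporter of tissue macrophages, had 7.42, 9.75 and 3.91 against 117 CPM. Cd83, an activation and maturation antigen, had 104, 58.5 and 38.4 against 1558 CPM. Each was called in both selections, but Cd83 was also at 86.1 CPM in the other normal cells against 3.05 to 7.50 CPM in the other tumor cells. The calls of Rab17, Atoh1 and Ighg2b rested on 3 normal cells each; Atoh1 is a secretory-lineage epithelial factor and Ighg2b an antibody chain. Arl4d and Gm10116 were also called higher, at 63.9 and 208 CPM in normal against at most 2.44 and 16.9 CPM in tumors. Spic, the transcription factor of iron-recycling macrophages, had 3.71, 1.63 and 4.56 CPM against 52.8 CPM, and was 6.03-fold (2.43 to 17.0) above day 6 in the marker-rich cells.

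Monocyte genes ran the other way. Of 22 genes of monocytes and recent recruits, 0 were called higher and 9 lower in normal colon (median log2 ratio -1.96), and 0 and 11 of 21 in the marker-rich cells (median -2.24). Chil3, a chitinase-like lectin of monocytes and activated macrophages (chromosome 3, 106147554 to 106167564), had 173, 264 and 73.6 CPM in the tumors and 1 UMI, or 2.78 CPM, in normal. The ratio to day 6, the lowest tumor library, was 26.5 (4.66 to 1056). Clec4e, a receptor for microbial glycolipids and dead cells, had 63.1, 128 and 72.9 CPM against 5.55 CPM from 2 UMIs, a ratio of 11.4 (2.91 to 97.6). Hp, haptoglobin, had 37.1, 101 and 67.7 CPM against 5.55 CPM from 2 UMIs. Normal lay below all 3 tumor values for each, as the call required.

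Thbs1, thrombospondin-1 (chromosome 2, 118111876 to 118127133), had 623, 1286 and 622 CPM in tumors and 172 CPM in normal. Fn1, fibronectin (chromosome 1, 71585473 to 71653280), had 583, 701 and 335 CPM against 50.0 CPM. In the marker-rich cells the gaps widened to 10.5-fold (7.56 to 15.02) for Thbs1 and 17.6-fold (9.77 to 34.8) for Fn1. Thinned to 1000 UMIs, 35.3%, 52.6% and 32.1% of marker-rich tumor macrophages had an Fn1 UMI against 5.45% (1.14 to 15.1) in normal, where 30.3% of the other cells, at a median depth of 2976.5 UMIs, had one. The unthinned shares were 61.8%, 73.7%, 45.9% and 15% (9 of 60 normal cells). The low Fn1 level of normal macrophages stood beside a high level in the other cells of that library. For Clec4e the thinned shares were 17.6%, 24.2% and 21.1% in tumors and 0 of 55 cells in normal (upper bound 6.49%).

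S100a4, S100a6 and S100a11, small calcium-binding proteins, were called lower in both selections, and S100a10 with all cells of the rule. S100a6 had 14367, 10868 and 8685 CPM in tumors and 2857 CPM in normal. The other cells had 14159, 10707, 10030.0 and 3984 CPM of S100a6, a difference of the same direction. F10, a coagulation factor, with Ms4a4c and Ifitm6 were called only in the marker-rich cells. The defining monocyte receptors were less uniform. Ccr2, the receptor for Ccl2, had 161, 259 and 59.9 CPM in tumors and 61.1 CPM in normal, and Ly6c2 87.2, 140 and 91.1 against 119 CPM, so that normal lay inside the tumor range for both. In the marker-rich cells normal lay below all 3 tumor libraries for Ccr2 (471, 581 and 157 against 85.0 CPM) and Ly6c2 (241, 309 and 225 against 162 CPM), and neither was called.

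The leading macrophage-enriched genes lower in normal colon were a mixed group of secreted factors, receptors and others. Cxcl3, a neutrophil-attracting chemokine (chromosome 5, 90786101 to 90788093), had 234, 432 and 161 CPM in tumors and 1 UMI, or 2.78 CPM, in normal; the ratio to day 6 was 57.9 (10.3 to 2297) and in marker-rich cells 105 (18.6 to 4162). Nrg1, a ligand of ErbB receptors, had 70.5, 96.7 and 89.2 CPM against 5.55 CPM from 2 UMIs. Inhba, the activin A subunit, had 31.5, 67.5 and 109 CPM and 0 UMIs in normal, at least 3.79-fold lower when 3 UMIs are taken as the floor. Cxcl14 also had 0 normal UMIs, at 55.7, 57.7 and 24.1 CPM in tumors. Among the receptors, Trem1, an amplifier of inflammation that is also in the list of neutrophil markers, had 94.6, 114 and 57.9 CPM against 11.1 CPM. Fpr2, the formyl peptide receptor, had 72.4, 147 and 87.2 against 13.9 CPM. Cd14, the lipopolysaccharide co-receptor, had 994, 1222 and 1357 against 472 CPM. Gpr35, Adora2b, Sirpb1c, Dpep2 and Ciita completed the 15 genes, with nearest-library ratios of 2.34 for Ciita to 5.63 for Adora2b and Dpep2, the last 2 resting on 2 normal UMIs each. All 15 were called in both selections, each with a larger ratio to the nearest tumor library among marker-rich cells.

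The selection was also narrowed to marker-rich cells with at least 3 C1q UMIs (19, 36, 72 and 53 cells), although C1q genes belong to the rule. The genes given next kept their direction. Log2 ratios of normal to the tumor mean were then 3.62 for Folr2, 2.96 for Cd163, 3.01 for Cd4, -4.03 for Fn1, -4.03 for Clec4e, -5.86 for Cxcl3 and -1.88 for Thbs1. The medians were 1.49 for the resident and -1.70 for the monocyte list. Other members changed more: Chil3 went from -5.94 with all cells of the rule to -2.205, and the uncalled Plac8 from -1.07 to 0.56. Of the resident list, Pf4 stood at 0.065 and Stab1 at -0.048.

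Cytokines and chemokines split. The study's text names 5 genes in tumor macrophages. It reports Arg1, Il1rn and Tgfb1 as enriched there, and Il10 and Tnf as unique to AOM/DSS tumor macrophages. It compared untreated tumors and normal colon from whole-tissue dissociation, so its statements were not tested here. Il10, an anti-inflammatory cytokine, had 85.3, 23.6 and 13.7 CPM in tumors and 408 CPM in normal. Normal was 4.78-fold (3.41 to 6.81) above the highest tumor value, and 2.51-fold (1.75 to 3.66) in the marker-rich cells. Arg1, an arginine-degrading enzyme used as a marker of alternative activation, had 92.8, 435 and 290 CPM in tumors and 0 UMIs in normal, at least 11.1-fold lower. The other tumor cells had 82.4, 202 and 612 CPM of Arg1, which lay below the macrophages in both day 1 libraries and above them in day 6. In the marker-rich cells Arg1 had 241, 542 and 494 CPM in tumors and 0 UMIs in normal. Tnf had 24.1, 39.0 and 39.7 CPM against 117 CPM and was called with all cells of the rule, at 1.90-fold in the marker-rich cells not. Il1rn (195, 573 and 910 against 175 CPM) and Tgfb1 (77.9, 70.7 and 33.9 against 136 CPM) were called in neither selection.

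Of 26 chemokines and their receptors, 7 were called higher and 2 lower in normal, and 4 and 2 in the marker-rich cells. Ccl8, a monocyte attractant of resident macrophages, had 31.5, 8.13 and 87.9 CPM in tumors and 664 CPM in normal. Normal was 7.55-fold (6.09 to 9.40) above day 6, and 4.24-fold (3.40 to 5.32) in the marker-rich cells. Ccl2 had 29.7, 56.1 and 48.8 against 186 CPM. Cxcl12 was higher too, but at 560 CPM in the other normal cells against 169 CPM in the macrophages. Cxcl2 (655, 966 and 367 against 714 CPM) and Ccl4 (66.8, 164 and 113 against 269 CPM) were not called, and neither was the cytokine Il1b (1026, 832 and 661 against 855 CPM). The chemokine median was 0.32 with all cells of the rule and -0.38 with marker-rich cells, and that of 22 inflammatory cytokine genes 0.40 and -0.37, so that neither list had a stable direction. Within the latter, Tnfaip3, Nfkbiz and Tnfsf9 were called higher in normal in both selections, and Il1a, Saa3 and Clec4d lower among marker-rich cells only.

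Complement genes were higher in normal colon in 6 of 12 and lower in 0, and in 6 and 0 of 11 among marker-rich cells. Cfp, properdin, which stabilises the alternative pathway, had 61.2, 73.2 and 75.5 CPM against 325 CPM in normal. C3ar1, the C3a receptor, had 18.6, 41.5 and 48.2 against 214 CPM, and Cd93, a C1q-binding receptor, 48.2, 64.2 and 24.7 against 242 CPM. These 3 genes were under 30 CPM in the other cells of every library. In the marker-rich cells their normal values were 2.30-fold, 2.31-fold and 2.31-fold above the highest tumor library. C3, C4b and Serping1 were also high among the other normal cells (C3 at 182 CPM, Serping1 at 387 CPM). The profile of the other cells was also subtracted, scaled by the median ratio of the epithelial genes. In day 1 replicate 1, day 1 replicate 2, day 6 and normal the factors were 1.14, 1.09, 0.98 and 0.75. In the marker-rich cells they were 0.49, 0.48, 0.46 and 0.39. With all cells of the rule this took away about the whole profile in tumors, so it is no estimate of free RNA alone. The complement median then went from 1.44 to -0.34 for all cells of the rule, and from 1.51 to 0.61 for marker-rich cells.

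Antigen presentation and interferon calls are given beside shares of 4.72% higher and 3.66% lower over all genes. In the marker-rich cells these shares were 3.02% and 2.43%. Of 12 MHC class II genes, Cd86, a T cell costimulator, was called higher (90.9, 115 and 60.5 against 533 CPM) and Ciita, the class II transactivator, lower (102.04, 71.5 and 93.7 against 30.5 CPM). With all cells of the rule, H2-Aa, H2-Ab1 and Cd74 lay within the tumor range. H2-Aa had 2764, 1575 and 4880 CPM in tumors and 3957 CPM in normal. H2-Ab1 had 1731, 1364 and 4460 against 3038 CPM, and Cd74 3161, 946 and 2599 against 2977 CPM. Among marker-rich cells 1 class II gene was called higher and 1 lower of 12, while 1 lay above and 5 below all 3 tumor values. The class II median was 0.31 with all cells of the rule and -0.50 with marker-rich cells. Over all genes it was -0.22 and -0.26, so that the list had no stable direction. Of 20 MHC class I genes 0 were called in either direction in both selections. Of 33 interferon response genes 1 was higher and 3 lower (1 and 3 of 29 among marker-rich cells). Ifitm3, an antiviral membrane protein, had 1748, 1176 and 1023 CPM against 267 CPM, with Ifitm1 and Ifitm2 also lower. The other tumor cells had between 1270.1 and 2292 CPM of Ifitm3. After subtraction of the other cells' profile from all cells of the rule, its log2 ratio turned to 0.77. In the marker-rich cells Ifitm3 was called lower, with day 6 4.94-fold (3.95 to 6.25) above normal. Its direction reversed in 1 of 21 alternatives. Bst2 was higher in normal, at 161 CPM against 9.75 to 24.1 CPM.

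**Figure D3:**
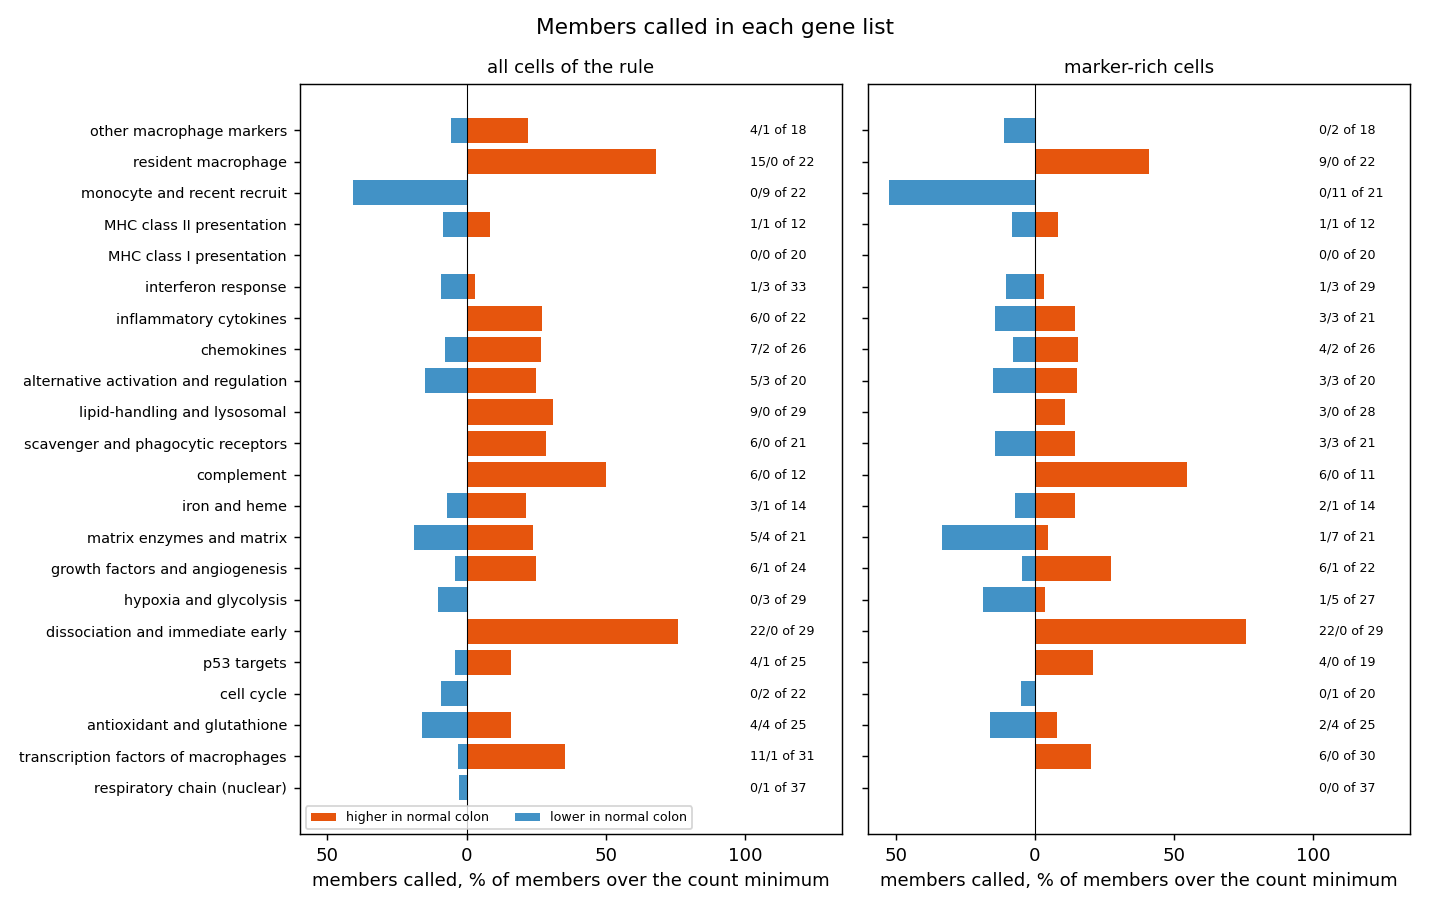
Percent of each list's members over the count minimum that were called higher (orange, right of 0) or lower (blue, left of 0) in normal colon, with the counts higher/lower of tested beside the bars; left with all cells of the rule, right with marker-rich cells. The dissociation and immediate early list reaches 22 of 29 in both panels, the resident list 15 of 22 and 9 of 22, and the monocyte list is the one with 9 and 11 members on the lower side.

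Matrix genes of macrophages lay on the tumor side in the marker-rich cells, where 7 of 21 were called lower and 1 higher in normal, against 4 and 5 with all cells of the rule. Mmp14, a membrane-bound collagenase, had 115, 111 and 76.8 CPM against 25.0 CPM, and Adam8, a membrane protease of myeloid cells, 117, 92.7 and 41.0 against 8.33 CPM from 3 UMIs. Tgfbi, Mmp12 and Timp1 joined them among marker-rich cells; Tgfbi then had 1794, 1572 and 2078 CPM against 599 CPM. Mmp2, Sparc and Adamdec1, called higher in normal with all cells of the rule, turned lower when the profile of the other cells was subtracted from the marker-rich cells. Of 24 growth factor and angiogenesis genes, 6 were higher (Igf1, Gdf15, Nrp1, Nrp2, Hbegf and Bmp2) and 1, Inhba, lower; the same 7 genes were called among 22 in the marker-rich cells. Hbegf and Bmp2 stood higher in the other normal cells, at 686 and 225 CPM, than in the normal macrophages, at 428 and 125 CPM.

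Lipid-handling and lysosomal genes were called higher in 9 of 29 and lower in 0 with all cells of the rule, and in 3 and 0 of 28 among marker-rich cells. The 3 were Cd36, a fatty acid and scavenger receptor (7.42, 19.5 and 3.26 CPM against 122 CPM), Gpnmb, a lysosomal glycoprotein (0, 8.94 and 28.0 against 200 CPM), and Hexa, a lysosomal hexosaminidase (40.8, 36.6 and 64.5 against 208 CPM). Apoe, an abundant lipid carrier, had 2024, 1256 and 1114 CPM against 6933 CPM; among marker-rich cells it was 1.63-fold above day 1 replicate 1 and not called. Of 29 hypoxia and glycolysis genes 0 were higher and 3 lower, and 1 and 5 of 27 among marker-rich cells, among them Hif1a (245, 325 and 365 against 103 CPM) and Mif (367, 196 and 341 against 55.5 CPM). The cystine importer Slc7a11 was lower as well (154, 332 and 97.7 against 22.2 CPM). Of 22 cell cycle genes 0 were higher and 2 lower, Mcm5 and Stmn1, and 0 and 1 of 20 among marker-rich cells. With uncalled members counted, 19 of 22 lay below all 3 tumor values and 0 above (15 and 1 of 20 among marker-rich cells). Over all genes 4610 of 11293 lay below. The median log2 ratio was -1.97, and -1.38 among marker-rich cells, against -0.22 and -0.26 over all genes. The other cells differed in the same direction, with list sums of 2696, 1650 and 2542 CPM in tumors and 1398 CPM in normal.

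Scavenger and phagocytic receptors had 6 higher and 0 lower of 21 with all cells of the rule, and 3 and 3 among marker-rich cells, where the Fc receptors Fcgr3 and Fcgr4 and the scavenger receptor Msr1 were lower in normal. Iron and heme genes had 3 higher and 1 lower of 14 (2 and 1 among marker-rich cells), and alternative activation genes 5 and 3 of 20 (3 and 3). The p53 targets had 4 higher and 1 lower of 25 (4 and 0 of 19). Over all genes 4.72% were called higher and 3.66% lower, and 3.02% and 2.43% in the marker-rich cells. The p53 median log2 ratio was -0.52 (-0.40 among marker-rich cells), against -0.22 (-0.26) over all genes. With all cells of the rule, 7 p53 targets lay above all 3 tumor values and 8 below. Of the higher p53 targets, Btg2 is also in the immediate early list. Macrophage transcription factors had 11 higher and 1 lower of 31, and 6 and 0 of 30 among marker-rich cells. The second count held Cebpa, Cebpd, Atf3, Nr4a1, Klf4 and Hes1. The median log2 ratio of this list was 0.87, and 0.24 among marker-rich cells. Atf3 and Nr4a1 are also in the immediate early list. With the profile of the other cells subtracted, Hes1 reversed in all cells of the rule and Cebpd in the marker-rich cells. Antioxidant genes split, with 4 and 4 of 25 (2 and 4), and nuclear respiratory chain genes had 0 and 1 of 37 (0 and 0). Of 18 further macrophage markers 4 were higher and 1 lower (0 and 2 among marker-rich cells), and general markers such as Tyrobp and Lyz2 were called in neither selection.

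Immediate early and heat shock genes, which tissue dissociation is known to induce, had the most called members of all lists. Of 29 such genes 22 were called higher and 0 lower in normal colon in both selections, with a median log2 ratio of 2.96 and 2.28. Fos had 321, 576 and 406 CPM in tumors and 4343 CPM in normal, Atf3 81.6, 95.9 and 40.4 against 1969 CPM, and Klf2 26.0, 64.2 and 24.7 against 991 CPM. Summed, the list took 34367 CPM in normal macrophages against 8226, 7355 and 5213 CPM. The other cells of the normal library had 28189 CPM against 7374, 5897 and 4575 CPM, so the other cells differed in the same direction. Fos was at 4999 CPM and Zfp36 at 1855 CPM in those other normal cells. Genes of other lists showed the same: Klf4 had 1786 CPM and Gdf15, a stress cytokine, 205 CPM in the other normal cells, against 1644 and 528 CPM in the normal macrophages.

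Hspa1a, the inducible heat shock protein 70, showed the largest ratio of all enriched genes: 11.1, 11.4 and 11.7 CPM in tumors and 1166 CPM in normal, 99.5-fold (62.2 to 170), and 95.7-fold (49.9 to 211) in the marker-rich cells. Its neighbour Hspa1b had 48.2, 82.1 and 41.7 against 961 CPM. The 2 genes lie side by side on chromosome 17 and are near copies, so that their counts may be split between them. Their promoters are shown to let the pair be compared (RefSeq, GRCm38.p6, minus strand, 250 bases before to 50 after the start, chr17:34972107-34972406 and chr17:34959189-34959488). Capitals mark the heat shock element core GAANNTTC, searched with TTCNNGAA on both strands.
Hspa1a: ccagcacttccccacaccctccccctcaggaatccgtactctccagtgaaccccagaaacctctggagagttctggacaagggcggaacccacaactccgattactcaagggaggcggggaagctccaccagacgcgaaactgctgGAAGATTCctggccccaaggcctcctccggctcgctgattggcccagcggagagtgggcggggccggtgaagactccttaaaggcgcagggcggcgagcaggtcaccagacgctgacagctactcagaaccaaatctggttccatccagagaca
Hspa1b: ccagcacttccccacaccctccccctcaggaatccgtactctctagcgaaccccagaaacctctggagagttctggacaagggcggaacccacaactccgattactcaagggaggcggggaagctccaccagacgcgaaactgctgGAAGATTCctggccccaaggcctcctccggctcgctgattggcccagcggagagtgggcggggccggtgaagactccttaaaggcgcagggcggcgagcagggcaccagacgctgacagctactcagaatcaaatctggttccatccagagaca
The 2 sequences differ at 4 of 300 bases and hold 1 match each. Of all 32851 promoters of this length, 15.1% hold at least 1 match.

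Markers of other cells moved with the comparison. The fibroblast list summed to 104, 69.1 and 179 CPM in tumor and 2094 CPM in normal macrophages, with 9 of 9 members called higher (6 of 8 among marker-rich cells, at 219, 81.6 and 425 against 1889.7 CPM), and to 7500 CPM in the other normal cells against 307 to 448 CPM in the other tumor cells. The plasma cell list, led by Igkc and Igha, summed to 2711, 1119 and 11211 CPM against 28347 CPM, above the 19643 CPM of the other normal cells, with 6 of 8 members higher. Its member Jchain had UMIs in 16 of the 65 normal cells. The squamous list stood at 1705, 1333 and 5819 CPM against 369 CPM, with 6 of 9 members lower and Krt14 at 0 UMIs in normal. The epithelial list, with 0 of 17 members called, had 14520, 15870 and 15999 CPM against 10557 CPM with all cells of the rule, and 10685, 7121 and 7520 against 6156 CPM in the marker-rich cells. Fewer members were called in the neutrophil (0 higher, 1 lower of 7), dendritic (1 and 0 of 11), T and NK (0 and 0 of 5), B (1 and 0 of 3), endothelial (1 and 0 of 8) and mast cell (0 and 0 of 3) lists, and in the RNA quality list (1 and 0 of 8). The called neutrophil gene was Trem1. The erythroid list was at 2213 and 1719 CPM in the day 1 libraries, 54.7 CPM in day 6 and 2.78 CPM in normal. In bulk sums such as these, more cells of a type and more RNA per cell cannot be told apart, and the part of free RNA or joined cells in each call was not tested beyond the alternatives given. For Folr2, Fcrls, Cd163, Chil3 and C3ar1 the other cells of the library on the high side had at most 38.2 CPM.

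**Figure D4:**
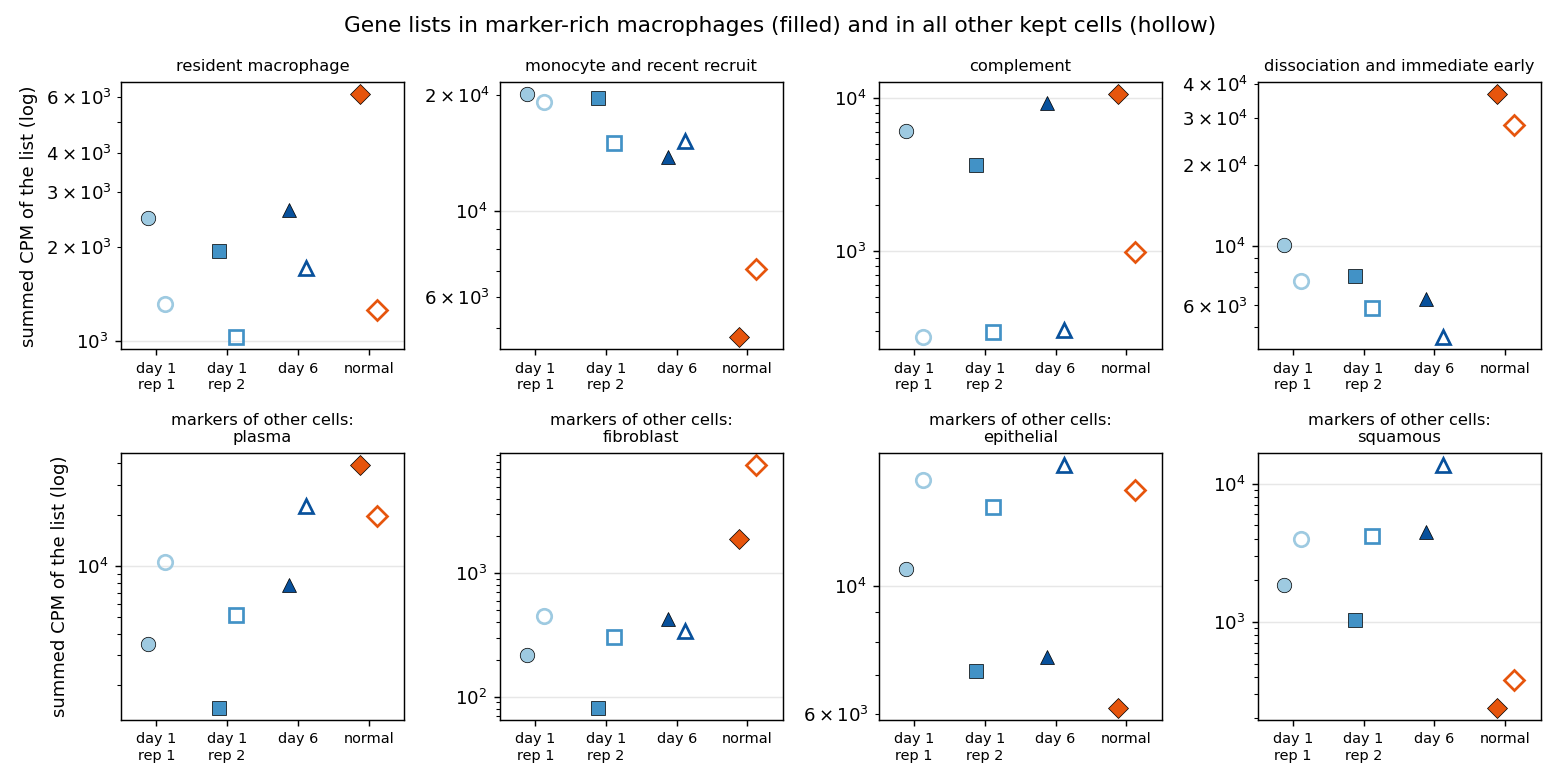
Summed CPM (y axis, log, scaled separately per panel) of 8 gene lists in the marker-rich macrophages (filled) and all cells outside the rule (hollow) of each library. The resident list separates normal from tumor macrophages while the hollow symbols stay between 1031 and 1716 CPM, whereas the immediate early and fibroblast lists are high in both kinds of normal cells.

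Day 3, with 13 marker-rich cells and 52121 UMIs, had a depth that shows little, and its side was not counted over the leading genes. In those cells Folr2 had 38.4 CPM, Cd163 and Fcrls 0 CPM, Fn1 211 CPM, Thbs1 345 CPM and Arg1 787 CPM. With day 3 added to the tumor libraries, which can only remove calls, 358 genes were higher and 244 lower in normal.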

How the data were processed

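Single cells were profiled by inDrop, 1 library per deposited table. The authors deposited raw UMI counts per barcode and gene, made with dropEst on GRCm38 per the labels and methods. Barcodes with at least 500 genes and at most 15% mitochondrial counts were kept. UMIs of the macrophages were summed per library and given as CPM. Tested genes had at least 10 UMIs in 1 of 4 sums; the 12 genes of the rule were left out, as were 49 genes because 24 names in the normal table had become dates. A further gene was left out of the lists and is not reported here. Exact 95% Poisson and binomial intervals cover counting error only, and 0 UMIs entered folds as 3. The members and lists were chosen with earlier results of these data known, and the marker-rich cells and the 6 leukocyte genes after the values were seen.

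Named were the 15 called genes of each direction with the largest fold to the nearest tumor library among those enriched in macrophages (2-fold over the other kept cells), called and leading uncalled members of each list, 5 genes that the study's text names, the genes of the rule and leading markers of other cells. Genes named by their near-identical copies (Hspa1a and Hspa1b, the Ifitm and Cd209 families, Ly6c2) are uncertain where reads could be split. Doublets were not removed; removal by Scrublet scores was an alternative. For shares of cells, each cell was thinned to 1000 UMIs; 2 day 6 and 5 normal marker-rich cells were shallower and left out. The libraries shared up to 41 kept barcodes per pair. Python 3.11.15, numpy 2.4.6, scipy 1.17.1, pandas 2.3.3, scanpy 1.11.5, R 4.3.3, edgeR 4.0.16 and DESeq2 1.42.0 were used. The calls were also run on simulated sums. The planted changes were larger than the 2-fold minimum and the spread below that of these data, so this does not measure false calls here. Fits by edgeR and DESeq2 were alternatives only, since 1 normal library gives no spread of its own.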

Additional observations from a re-analysis of the deposited data

How the results depend on the processing

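The calls were recomputed under each alternative. Free RNA subtracted stands for subtraction of the other cells' profile with the factors given for complement, which is no estimate of free RNA alone. Counts below are higher and lower in normal, against 533 and 413. They were 324 and 223 at 3-fold and 343 and 262 with at least 5 marker UMIs. At least 3 C1q UMIs gave 332 and 198, and thinning 66 and 36 (1750 genes). Free RNA subtracted gave 433 and 172, and day 3 added 358 and 244. With each cell weighted the same the counts were 812 and 2277, by the 2-fold minimum alone. The interval condition and the floor for 0 UMIs were not applied there, so these counts cannot be set against 533 and 413. Leaving out 1 tumor library gave 624 to 724 higher and 486 to 755 lower, the last without day 6. Marker-rich cells gave 261 and 210; leaving out 1 tumor library there gave 312 to 410 higher and 270 to 363 lower (342 and 343 without day 6), adding day 3 gave 150 and 90, at least 3 C1q UMIs 201 and 149, and free RNA subtracted 215 and 196. With an adjusted p under 0.05, edgeR called 58 and 1 (937 and 822 at an unadjusted p under 0.05) and DESeq2 171 and 66 (616 and 541); the lone normal library is assumed there to vary like the tumor libraries. Removing cells with 3 or more UMIs of other cells' markers left 0 cells in day 1 replicate 1 and in day 6 and gave no value. No paired analysis was possible because only 1 normal library was used.

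Of 146 called named genes, 123 kept their direction under every alternative and 23 reversed at least once. The genes were chosen by this contrast and the alternatives reuse the same cells and libraries, so a kept direction is no support. Direction alone was counted, not whether the call was kept. The dual-index alternative held the same libraries as the one without day 1 replicate 1. With free RNA subtracted the log2 ratio of normal to the tumor mean was -3.12 for Adamdec1, -1.06 for Axl, -0.72 for Bmp2, -0.15 for Cd68, -1.94 for Egr2, 0.35 for Gsr, -4.55 for Hbegf, -1.67 for Hes1, -1.38 for Ier2, 0.77 for Ifitm3, -0.31 for Mmp2 and 1.45 for Ndufa4. In marker-rich cells with free RNA subtracted it was -3.30 for Adamdec1, -0.17 for Axl, -0.29 for Cebpd, 0.14 for Egln3, Gsta3, Mcm5 and Pparg, -2.16 for Hbegf, -0.95 for Mmp2, 1.48 for Ndufa4, -0.0044 for Serping1 and -0.068 for Sparc. In thinned cells it was 1.26 for Egln3, 2.16 for Gsta3, -2.13 for Ighg2b and Rab17, 1.04 for Mcm5, 0.64 for Phlda3 and -0.66 for Stab1. With at least 3 C1q UMIs Rab17 was at -0.42, and in marker-rich cells so chosen Axl, Rab17 and Stab1 were at -0.30, -0.98 and -0.048; without day 1 replicate 2 marker-rich Rab17 was at -0.49. The causes were not tested.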
